A study of Homo sapiens with 4 samples.

Results

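The 8 genes described here encode the parts of the hemidesmosome, ITGA6, ITGB4, COL17A1, DST, PLEC and CD151, and the alpha 3 and beta 3 chains of laminin 332, LAMA3 and LAMB3. They were taken by symbol, and all 8 were found once among the 44591 gene entries of the files, of which 19233 are protein-coding. RNA-seq had been performed on 4 replicates of untreated HaCaT, a spontaneously immortalized line of human keratinocytes grown from adult skin. The labels give 12% serum in the medium and 5% CO2 for all 4, the study's methods give a lower share of serum, and neither gives an engineered allele or a treatment. There was 1 condition, so the comparisons below were made between genes within a replicate and between replicates. All 8 genes were detected, with mean levels from 40.0 to 612 transcripts per 1000000 (TPM) over protein-coding genes.

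The hemidesmosome is the junction that fixes basal keratinocytes to the basement membrane. Outside the cell, integrin α6β4, a pair of ITGA6 and ITGB4, binds laminin 332, a trimer with the chains of LAMA3 and LAMB3 that keratinocytes secrete. Inside the cell, plectin (PLEC) and the epithelial form of dystonin (DST, also called BP230) link the integrin and collagen XVII (COL17A1, also called BP180) to keratin filaments, and inherited loss of these proteins causes blistering of the skin.

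The 4 libraries differed in measures taken over all genes. Replicate 1 held 73082279 counts and replicates 2 to 4 held 17056035 to 19745170, and protein-coding genes took 76.1% of the counts in replicate 1 and 95.3% to 96.4% in the others. Across 11889 detected protein-coding genes with a known GC content, replicate 1 minus the mean of replicates 2 to 4 had a Spearman correlation of -0.51 with GC content. For replicate 3 minus the mean of replicates 2 and 4, the correlation with gene length was -0.53. The means of ITGA6, ITGB4, PLEC and DST and the differences between partner genes are therefore given with and without replicate 1. Means of other genes are over all 4 replicates unless stated. All 10 keratinocyte markers were detected, with a summed level of 13914 to 19262 TPM per replicate, against 6.45 to 11.6 TPM for 7 fibroblast, 1.60 to 3.52 TPM for 5 melanocyte, 0.859 to 2.36 TPM for 4 endothelial and 3.51 to 8.92 TPM for 5 leukocyte markers, with no count for TYR, PECAM1 or KDR in any replicate. In these bulk samples, fewer cells of a type and less RNA per cell cannot be told apart.

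LAMA3, LAMB3, DST and COL17A1 are shown by the sequence around a transcription start, because LAMA3 and DST also have long forms from other starts and counts per gene do not show which start was used. Windows of 300 bases (250 before and 50 after a RefSeq start, GRCh38.p14) were taken for 5 of the 8 genes, 10 windows in all. None was found for ITGB4 and CD151, and PLEC was not used here. Capitals mark matches to TGANTCA, the motif of AP-1, a factor family known to drive many keratinocyte genes. The motif reads alike on both strands and was the only motif searched. In the LAMA3 window (chr18:23872770-23873069, plus strand), which holds the start of the short epithelial form in GENCODE release 29, matches began 125 and 69 bases before the RefSeq start, both of them after that GENCODE start. Of 3 LAMB3 windows, 1 held a match, which began 67 bases before the start (chr1:209651325-209651624, minus strand). It is the one printed, chosen for its match, and the other LAMB3 windows had none. The DST window that holds the start of the epithelial form (chr6:56642840-56643139, minus strand) and the COL17A1 window (chr10:104085831-104086130, minus strand) had none.
LAMA3: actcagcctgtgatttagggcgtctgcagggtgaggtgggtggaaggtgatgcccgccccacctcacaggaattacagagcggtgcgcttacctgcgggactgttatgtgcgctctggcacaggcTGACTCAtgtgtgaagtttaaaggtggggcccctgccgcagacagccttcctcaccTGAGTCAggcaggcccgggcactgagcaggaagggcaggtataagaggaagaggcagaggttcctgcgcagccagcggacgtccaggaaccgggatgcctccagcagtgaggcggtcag
LAMB3: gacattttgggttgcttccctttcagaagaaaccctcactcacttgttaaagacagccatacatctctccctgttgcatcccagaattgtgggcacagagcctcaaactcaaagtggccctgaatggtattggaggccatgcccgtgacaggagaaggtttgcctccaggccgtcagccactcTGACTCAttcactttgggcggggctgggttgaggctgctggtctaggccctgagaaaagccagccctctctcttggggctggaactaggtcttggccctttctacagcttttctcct
DST: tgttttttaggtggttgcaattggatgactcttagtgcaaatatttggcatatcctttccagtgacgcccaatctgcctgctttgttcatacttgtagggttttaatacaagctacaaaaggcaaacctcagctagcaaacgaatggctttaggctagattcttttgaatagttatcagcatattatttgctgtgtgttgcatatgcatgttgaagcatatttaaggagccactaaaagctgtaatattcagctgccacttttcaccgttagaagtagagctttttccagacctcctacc
COL17A1: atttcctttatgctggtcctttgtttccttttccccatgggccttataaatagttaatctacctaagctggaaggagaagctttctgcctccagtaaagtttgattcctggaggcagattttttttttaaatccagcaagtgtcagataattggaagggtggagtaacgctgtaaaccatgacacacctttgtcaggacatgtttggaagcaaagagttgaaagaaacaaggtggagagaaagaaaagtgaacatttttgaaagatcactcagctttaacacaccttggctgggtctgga

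The motif was found in 3 of these 10 windows, which leave out PLEC and some of which overlap. The last was in a DST window of another, GC-rich start (GC content 80.0%), where the match began 25 bases after the start. Of all 35116 windows of this length, 7.71% held the motif and 0.515% held it at least 2 times, as the LAMA3 window did. The printed DST and COL17A1 windows had a GC content of 39.3% and 40.7%, below those of LAMB3 (53.7%) and LAMA3 (61.7%) and below the median of all windows, 58.7%. A match is a run of letters, and binding at these windows was not measured.

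Together the 8 genes took 0.299%, 0.300%, 0.149% and 0.286% of protein-coding TPM in replicates 1 to 4 (mean 0.259% ± 0.0731, SD, n = 4). Replicate 3 was the lowest and the other 3 lay close together. The median of the members' mean levels was 367 TPM, against 24.5 TPM over the 12165 detected protein-coding genes (mean above 1 TPM). LAMB3 stood highest, with 213 detected genes above it (percentile 98.2), and DST lowest, at percentile 64.8.

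**Figure D1:**
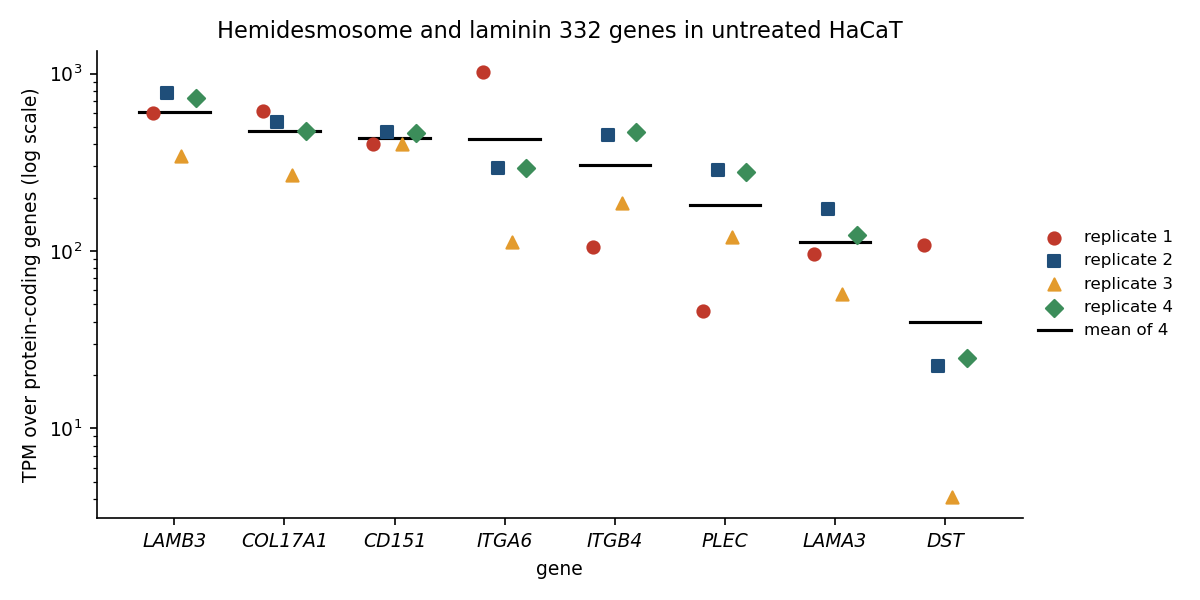
TPM over protein-coding genes (log axis) of the 8 genes, ordered by mean, in each of the 4 replicates (colored marks), with the mean of 4 as a black line. CD151 stayed within 404 to 469 TPM, whereas replicate 1 (red) lay far above the others for ITGA6 and DST and below them for ITGB4 and PLEC.

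ITGA6, the α6 integrin subunit (6077 bases in the files, chr2:173292082-173371183, plus strand), had 1022, 293.5, 113 and 293 TPM in replicates 1 to 4 (430 ± 404, SD, n = 4). Replicate 1 stood 4.39-fold above the mean of the others, replicates 2 and 4 were nearly equal, and replicate 3 was the lowest. Without replicate 1 the mean was 233 ± 104 TPM (n = 3). Its counts were 150950, 11858, 6179 and 13249, so counting error was small beside this spread. It overlaps 3 antisense entries, whose counts reached at most 0.607% of its own, and the strand of the counting was not stated.

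ITGB4, the β4 subunit, whose long cytoplasmic tail binds plectin (6186 bases, chr17:73717408-73753899, plus strand), had 105, 453, 186 and 471 TPM (304 ± 186, SD, n = 4). Here replicate 1 was the lowest, at 0.284 of the mean of the others, and replicates 2 and 4 were again close, the higher of them 1.04 times the other. Without replicate 1 the mean was 370 ± 160 TPM (n = 3). The integrin subunits thus lay on opposite sides in replicate 1, ITGA6 at percentile 98.7 of the detected genes and ITGB4 at percentile 87.7.

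COL17A1, the transmembrane collagen that binds ITGB4 and both plakins (5610 bases, chr10:105791046-105845638, minus strand), had 612, 532, 269.8 and 476 TPM (473 ± 146, SD, n = 4). Replicate 1 was the highest and replicate 3 the lowest, with a range of 2.27-fold. CD151, a tetraspanin that associates with α6 integrins (1549 bases, chr11:832952-838835, plus strand), had 404, 469, 404 and 460.2 TPM (434 ± 35.4, SD, n = 4). It was the steadiest member, with a coefficient of variation of 8.15% and a range of 1.16-fold. Of the detected genes, 15.1% ranged by less than 1.5-fold, and CD151 was the 1 member among them.

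PLEC, the large plakin that ties ITGB4 to keratin filaments (16463 bases, chr8:144989315-145050913, minus strand), had 45.8, 285, 120.1 and 279 TPM (182 ± 119, SD, n = 4). Replicate 1 was the lowest, at 0.201 of the mean of the others, which was 228 ± 93.5 TPM (n = 3). DST, whose epithelial form is the plakin BP230 and whose long forms serve nerve and muscle (24675 bases, chr6:56322785-56819426, minus strand), went the other way, with 108, 22.4, 4.12 and 25.1 TPM (40.0 ± 46.5, SD, n = 4). Replicate 1 stood 6.29-fold above the mean of the others, 17.2 ± 11.4 TPM (n = 3), and replicate 3 lay 5.76-fold below the mean of replicates 2 and 4. Its range of 26.3-fold was the widest among the members. From 914 to 64913 counts stood behind the DST values, so the low level in replicate 3 did not come from a few reads.

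The level of DST also depended on the length it was divided by. The deposited length is 2.74 times the 8999 bases of the epithelial transcript, and with that length DST reached 296.9, 61.5, 11.3 and 68.7 TPM (110 ± 127, SD, n = 4). LAMA3 has the same limit, as its deposited length is 1.98 times the 5671 bases of its epithelial transcript. With that length LAMA3 reached 222 ± 96.5 TPM (n = 4). Which transcripts were present was not tested.

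LAMB3, the beta 3 chain (4498 bases, chr1:209788215-209825820, minus strand), had 601, 773, 341 and 731 TPM (612 ± 195, SD, n = 4). LAMA3, the alpha 3 chain that carries the integrin-binding end of the trimer (11223 bases, chr18:21269407-21535030, plus strand), had 95.9, 173, 57.1 and 124 TPM (112 ± 48.7, SD, n = 4). Both chains were lowest in replicate 3 and highest in replicate 2, and replicate 1 lay between, at 0.977 and 0.814 of the mean of the others.

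The partners were then compared within each replicate as a ratio of reads per kilobase, which does not depend on library size. For ITGB4 over ITGA6, the subunits of 1 integrin, replicate 1 gave a ratio of 0.103 (95% Clopper-Pearson interval 0.101 to 0.104). Replicate 2 gave 1.54 (1.51 to 1.58), replicate 3 gave 1.64 (1.59 to 1.70) and replicate 4 gave 1.61 (1.58 to 1.65). Replicates 2 to 4 lay within 1.06-fold of each other and replicate 1 was on the other side of 1, 16.0-fold below the highest. The log2(TPM + 1) difference was -0.31 ± 1.97 (SD, n = 4, p = 1 in an exact permutation test that flips signs, two-sided) and 0.67 ± 0.04 without replicate 1.

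For LAMB3 over LAMA3, the ratio was 6.26 (6.18 to 6.36), 4.47 (4.37 to 4.57), 5.98 (5.80 to 6.17) and 5.91 (5.78 to 6.05), in the order of the replicates. Over all 4 replicates it was the steadiest of the 5 ratios, with a range of 1.40-fold, and LAMB3 was the higher chain in every replicate. Over replicates 2 to 4 its range was 1.34-fold, and ITGB4 over ITGA6 was steadier, at 1.06-fold. The log2(TPM + 1) difference was 2.48 ± 0.22 (SD, n = 4), p = 0.125 in the same exact permutation test, the smallest that 4 replicates can give, and 0.312 after Benjamini-Hochberg adjustment over the 5 ratios. Without replicate 1 the difference was 2.42 ± 0.23 (n = 3). The size of the ratio rests on the length taken for LAMA3, and with the epithelial transcript the log2 difference was 1.5.

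For DST over PLEC, the ratio of the plakins, values were 2.37 (2.33 to 2.40), 0.0787 (0.0760 to 0.0814), 0.0343 (0.0321 to 0.0367) and 0.0899 (0.0872 to 0.0927). DST was above PLEC in replicate 1 and far below it in the other 3, a range of 68.9-fold. The log2 difference was -2.59 ± 2.59 (SD, n = 4, exact permutation p = 0.25) and -3.87 ± 0.61 without replicate 1. Its size rests on the length taken for DST, and with the epithelial transcript it was -1.21 (exact permutation p = 0.5).

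For COL17A1 over ITGB4, replicate 1 gave a ratio of 5.83 (5.73 to 5.93), and the following replicates gave 1.17 (1.15 to 1.20), 1.45 (1.41 to 1.49) and 1.01 (0.991 to 1.03). The collagen was above the integrin subunit in all 4, but in replicate 4 the interval included 1. With no length correction, the union of exons or the longest coding transcript as length, it was above in 3 of 4 (exact permutation p = 0.375, 0.375 and 0.25). The log2 difference was 0.83 ± 1.16 (SD, n = 4, exact permutation p = 0.125) and fell to 0.26 ± 0.26 without replicate 1. For CD151 over ITGA6, the ratio was 0.395 (0.388 to 0.401), 1.60 (1.54 to 1.65), 3.57 (3.44 to 3.70) and 1.57 (1.52 to 1.62). CD151 was below ITGA6 in replicate 1 and above it in the others (log2 difference 0.45 ± 1.31, SD, n = 4, exact permutation p = 0.625, and 1.05 ± 0.67 without replicate 1). This direction rests on the short length of CD151, since with the union of exons it was above ITGA6 in 1 of 4 replicates (-0.78) and with no length correction in 0 of 4 (-1.51). In none of the 5 ratios did the interval of replicate 1 overlap that of another replicate. Most intervals of replicates 2 to 4 did not overlap each other either. Overlaps were seen for ITGB4 over ITGA6 (replicates 2 and 4, and 3 and 4) and LAMB3 over LAMA3 (3 and 4). CD151 over ITGA6 had 1 (2 and 4), and the remaining ratios had none. These intervals cover counting error only, since the reads carry no molecular identifiers and need not come from separate molecules.

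**Figure D2:**
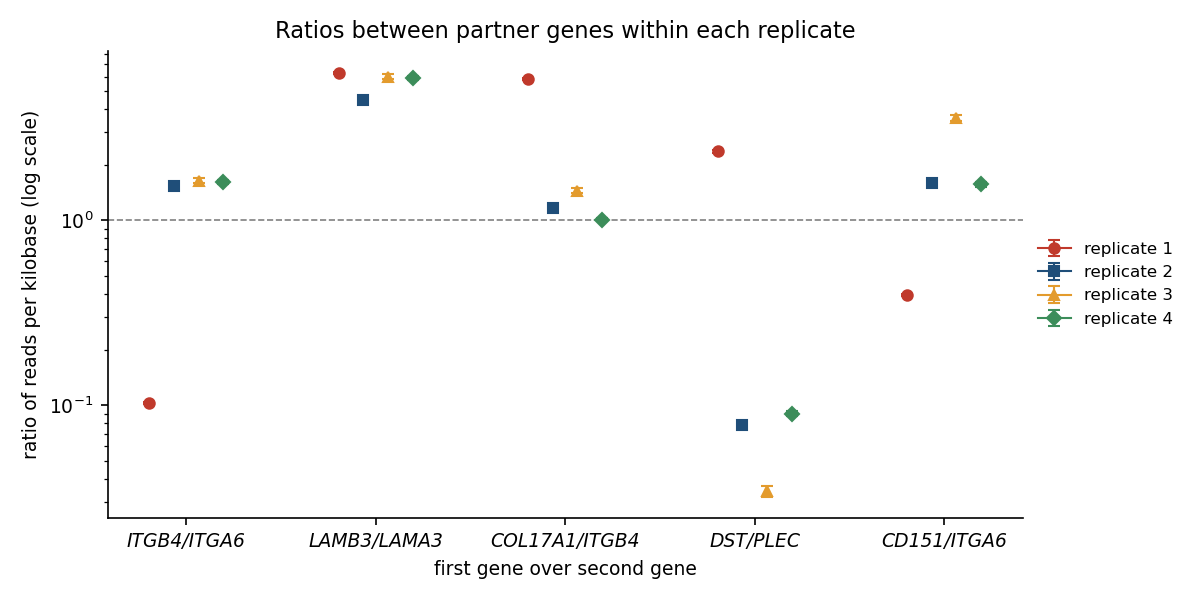
Ratios of reads per kilobase (log axis) for 5 pairs of partner genes in replicates 1 to 4, with 95% Clopper-Pearson intervals as bars (most are narrower than the mark) and a dashed line at 1. LAMB3/LAMA3 stayed between 4.47 and 6.26, while replicate 1 stood apart for ITGB4/ITGA6 (0.103), COL17A1/ITGB4 (5.83) and DST/PLEC (2.37). For CD151/ITGA6, replicate 1 was the lowest (0.395) and replicate 3 the highest (3.57).

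The members varied by unequal amounts between replicates. The median SD of log2(TPM + 1) was 0.86 for the 8 members and 0.52 for all detected genes, and without replicate 1 it was 0.73 and 0.33. It ran from 0.12 for CD151 to 1.80 for DST. Of the 8 members, 4 (ITGA6, ITGB4, DST and PLEC) ranged over at least 4-fold, as did 18.3% of detected genes. Replicates 2 and 4 were within 1.5-fold of each other for all 8 members and for 82.5% of detected genes, and the member least alike was LAMA3, where replicate 4 was at 0.715 of replicate 2.

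Replicate 1 was the highest for ITGA6, COL17A1 and DST, 3 of 8 members, and for 40.2% of detected genes. It was the lowest for ITGB4 and PLEC, 2 of 8, and for 37.5% of detected genes, and neither count of members lay far from its background share. Ordered by GC content, replicate 1 minus the mean of replicates 2 to 4, in log2(TPM + 1), was 2.90 for DST (GC content 41.3%), 2.25 for ITGA6 (42.9%), -0.16 for LAMA3 (50.7%), 0.58 for COL17A1 (55.9%), 0.06 for LAMB3 (58.9%), -0.13 for CD151 (63.1%), -1.69 for ITGB4 (63.7%) and -2.19 for PLEC (67.0%). The members poorest in GC were the highest in replicate 1 and the richest were the lowest, with a Spearman correlation of -0.86 over the 8 genes, which share the same libraries. After each replicate was centred within 20 bins of GC content, the difference was 2.30 for DST, 1.67 for ITGA6, -0.94 for ITGB4 and -1.29 for PLEC, so all 4 kept their direction at a smaller size. COL17A1 then stood at 1.15, LAMB3 at 0.60 and CD151 at 0.62, a change of sign for CD151. Centred in this way, the ITGB4 minus ITGA6 difference of replicate 1 was -2.27, and those of the others lay from 0.31 to 0.39. The part of GC content in these differences was not tested beyond this centring.

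Replicate 3 was the lowest for ITGA6, COL17A1, DST, CD151, LAMA3 and LAMB3, 6 of 8 members, against 40.2% of detected genes, and for CD151 by less than 1 TPM. Compared with the mean of replicates 2 and 4 alone, replicate 3 was lower for all 8, by 0.20 for CD151 to 2.27 for DST in log2(TPM + 1), where the median over detected genes was -0.30 and that of the members -1.27. The members are long, with a median of 6132 bases against 3276 for detected genes. CD151, the shortest, differed least and DST, the longest, most, and the Spearman correlation with length over the 8 was -0.76. After centring within 20 bins of length the differences were -0.31 for CD151, -0.27 for PLEC, -0.30 for COL17A1, -0.39 for LAMA3, -0.71 for ITGB4, -0.77 for both ITGA6 and LAMB3, and -1.31 for DST, all still below 0. DST, PLEC and LAMA3 shared a bin, so DST was not centred for its own greater length. The part of length in these differences was not tested beyond this centring.

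**Figure D3:**
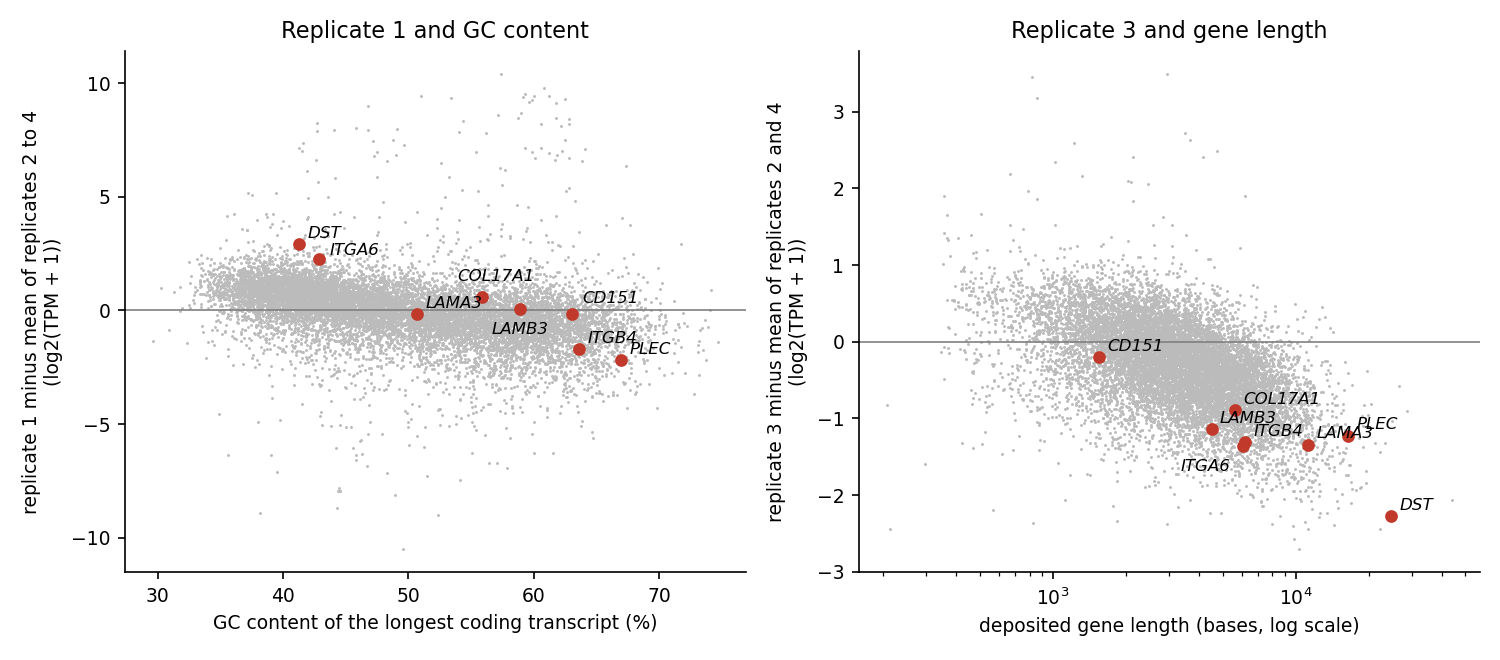
Left, replicate 1 minus the mean of replicates 2 to 4 in log2(TPM + 1) against GC content (%). Right, replicate 3 minus the mean of replicates 2 and 4 against deposited gene length in bases (log axis). Grey dots are detected protein-coding genes (11889 with a GC value on the left) and red dots the 8 members, which run from 2.90 (DST) to -2.19 (PLEC) on the left and lie below 0 on the right.

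The order of the 8 genes by level was LAMB3, COL17A1, CD151, ITGA6, ITGB4, PLEC, LAMA3 and DST by the mean of 4. Among neighbours in this order, COL17A1 and CD151 (0.06 ± 0.49, SD of the log2 difference, n = 4), CD151 and ITGA6 (0.45 ± 1.31), ITGA6 and ITGB4 (0.31 ± 1.97) and PLEC and LAMA3 (0.47 ± 1.03) did not differ beyond their spread. LAMB3 and COL17A1 differed by 0.37 ± 0.29 and LAMA3 and DST by 2.12 ± 1.61, each in the same direction in 3 of 4 replicates. ITGB4 was above PLEC in 4 of 4 (0.81 ± 0.25), and this integrin subunit and the plakin it binds were both lowest in replicate 1. By the mean of replicates 2 to 4, CD151 (444 TPM) stood above COL17A1 (426) and ITGB4 (370) above ITGA6 (233), with the other places unchanged.

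Over all 28 pairs of members, 15 had the same order in all 4 replicates. Each of these 15 had p = 0.125 in the exact permutation test, and 0.233 after Benjamini-Hochberg adjustment over the 28 pairs, so none passed 0.05 and none could have. Among replicates 2 to 4, 24 pairs kept 1 order, and 9 of these were reversed in replicate 1. LAMB3, COL17A1 and CD151 were above LAMA3 and above DST in every replicate, as was ITGA6, by the deposited lengths. With the epithelial transcripts of LAMA3 and DST, 13 pairs kept 1 order. LAMA3 was then at 342 TPM in replicate 2, above ITGA6 and PLEC, and at 190 TPM in replicate 1, above ITGB4 and PLEC. By the deposited lengths LAMA3 ranked 7 of the 8 in every replicate, whereas ITGA6 was the highest in replicate 1 and ranked 5 or 6 in the others. DST was the last in replicates 2 to 4 and ranked 5 in replicate 1, where PLEC was the last.

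Of the 10 laminin chains other than LAMA3 and LAMB3, 5 were detected. Among these were LAMA5 (205 ± 150 TPM), the alpha chain of other laminins of the basement membrane, LAMC1 (135 ± 61.4), LAMB2 (58.3 ± 45.5) and LAMB1 (40.8 ± 31.6). By the deposited lengths LAMA5 was above LAMA3 in replicates 2 to 4, with LAMA3 at 0.506, 0.538 and 0.380 of it, and below it in replicate 1, where LAMA3 had 2.0 times the reads per kilobase of LAMA5. With the epithelial length of LAMA3 this order did not hold in replicates 2 and 3, where LAMA3 had 342 and 113 TPM and LAMA5 342 and 106 TPM. Of the chains named here, LAMA5 (GC content 66.4%) and LAMB1 (49.5%) were lowest in replicate 1, as ITGB4 and PLEC were. LAMB2 (60.3%) was highest in replicate 1, and LAMC1 (48.65%) was neither.

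**Figure D4:**
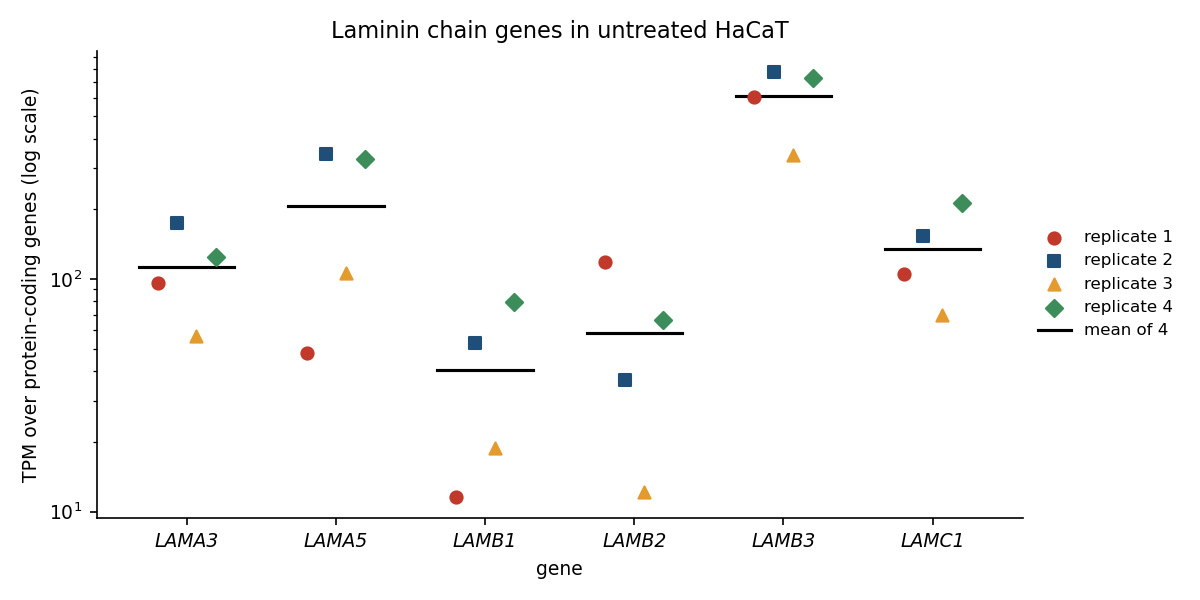
TPM over protein-coding genes (log axis) of 6 laminin chain genes in replicates 1 to 4 (colored marks), with the mean of 4 as a black line. LAMB3 lies above the other plotted chains in each replicate, and LAMA5 runs from 47.9 TPM in replicate 1 to 342 TPM in replicate 2.

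Other genes of the same structures were listed for comparison. Of 13 genes of the basement membrane and its anchors, 11 were detected, led by AGRN (287 ± 195 TPM), a proteoglycan of basement membranes, and COL4A2 (122 ± 83.2), a collagen IV chain. FERMT1 (98.2 ± 23.3), the kindlin that activates integrins in keratinocytes, COL7A1 (41.5 ± 23.6), which forms the anchoring fibrils that hold laminin 332 to the dermis, and COL4A1 (30.9 ± 19.9) followed. COL7A1 was below LAMB3 in every replicate. All 5 other plakins were detected, with DSP, the plakin of desmosomes, at 534, 271, 75.2 and 255 TPM (284 ± 189, SD, n = 4). DSP was highest in replicate 1 and lowest in replicate 3, as DST, ITGA6 and COL17A1 were, whereas PLEC was lowest in replicate 1. All 5 other plakins were lowest in replicate 3, as were 40.2% of detected genes. For EPPK1 the margin was small (38.2 TPM, against 40.2 TPM in replicate 1). Besides DSP, these plakins were PPL (184 ± 33.8), EPPK1 (71.1 ± 37.5), EVPL (53.6 ± 16.8) and MACF1 (34.5 ± 16.3).

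Of 39 symbols searched for other tetraspanins, 28 were found in the files and 18 were detected. A symbol that was not found need not be a missing gene. CD9 (445 ± 134 TPM), CD81 (274 ± 141), CD63 (200.2 ± 43.5), CD82 (150.1 ± 29.2) and TSPAN1 (141 ± 63.3) led them. The means of CD151 and CD9, both partners of integrins, differed by less than the SD of either. However, CD151 was below CD9 in replicate 1 (404 against 644 TPM) and above it in replicates 2 to 4. Of 5 other subunits of laminin-binding integrins, 4 were detected. ITGA3 (336 ± 149 TPM), the α subunit that pairs with ITGB1 to bind laminin 332 outside hemidesmosomes, ITGB1 (214 ± 64.0) and ITGA2 (62.3 ± 30.7) were followed by ITGA1 (2.88 TPM). ITGB1, the other partner of ITGA6, was below ITGA6 in replicates 1, 2 and 4, with ITGA6 at 3.87, 1.47 and 1.11 times its reads per kilobase, and above it in replicate 3, where the ratio was 0.877.

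By likeness of level, the member nearest to COL17A1 was CD151 (Euclidean distance 0.85 in log2(TPM + 1) over 4 replicates), LAMB3 was nearest to COL17A1 (0.89), and ITGB4 and PLEC were nearest to each other (1.67). ITGA6 was farther from its nearest member, COL17A1 (1.82), as was LAMA3 from PLEC (2.03), and DST was far from every member, with LAMA3 nearest at 5.08. Among all detected genes other than the members, the 3 profiles nearest to the mean of the 8 included those of SPTAN1 (0.47), the nonerythroid alpha spectrin, and PKP1 (0.52), a plakophilin of desmosomes. Distance compares levels in these 4 libraries alone.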

How the data were processed

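RNA-seq of 4 untreated HaCaT replicates was used. The labels do not say that these were separate cultures (the study calls them biological repeats), so p-values measure only the spread between these samples. The authors deposited raw counts per gene with a length and position for all 4 replicates, RPKM for replicates 1 and 2, and TPM for replicates 3 and 4. The submitters' processing notes name HISAT, HISAT2, TopHat2, Bowtie2 and hg19 without a role. The counting program, its strand setting and the annotation are not given in the sources used here, and positions are printed as deposited.

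Here TPM over protein-coding genes was worked out for every replicate from these counts and lengths. Genes with a mean above 1 TPM were called detected. Differences within a replicate were taken in log2(TPM + 1), a scale that understates the change of low genes, and tested by exact permutation (sign flips over replicates, two-sided) with Benjamini-Hochberg adjustment. Ratios of reads per kilobase have 95% Clopper-Pearson intervals. Counts of 3 or fewer were marked as a floor, which the call of detection did not use. The members and lists were chosen with earlier results of these data known. Named were all members, up to 5 detected genes per list by mean TPM, the 3 genes nearest to the members' mean profile and each member's nearest member; ratios with LAMA5 and ITGB1 were added after seeing the data. Some genes of these lists are not reported here. GC content and transcript lengths came from GENCODE release 29 (by symbol, GC found for 97.7% of detected genes), and promoter windows from RefSeq (GRCh38.p14). Alternatives were other pseudocounts, lengths, scalings and detection limits and leaving out each replicate. The epithelial transcript lengths and the centring by GC content or length were added after seeing the data. The scripts were tested on simulated data. Software was matplotlib 3.10.9, SciPy 1.17.1, NumPy 2.4.6, pandas 2.3.3 and Python 3.11.15.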

Additional observations from a re-analysis of the deposited data

Results flagged for a closer look

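Of 14 sets of 4 values examined (the share of the members, the level of each member and the ratios), 4 had a sample far from the other 3 by Dixon's criterion. Chance alone would flag about 1 in 20 independent sets, or 0.7 of 14. These sets share genes and libraries, so 4 cannot be weighed against 0.7. The criterion was applied to the ratios and not to their logarithms, and a flag can depend on that scale and on which gene is placed first. Replicate 1 stood far below the others in the ratio of ITGB4 to ITGA6 (0.103). It stood far above them in the ratio of COL17A1 to ITGB4 (5.83) and of DST to PLEC (2.37). Replicate 3 stood far below the others in the share of protein-coding TPM taken by the 8 members (0.149%).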

How the results depend on the processing

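Of 105 values recomputed under other pseudocounts, lengths, scalings, detection limits, centrings or with a replicate left out, 99 kept their direction or, for counts and shares, stayed close. This tally is not a measure of stability, because some settings could not move some values. The epithelial lengths do not enter ITGB4 minus ITGA6, and centring within bins leaves a mean difference over the replicates nearly fixed. Values called close include 20 pairs against 15 and a share of 0.189% against 0.259%. The ITGB4 minus ITGA6 difference turned to 0.67 without replicate 1, with a range of -0.65 to 0.67 over the replicates left out in turn. The CD151 minus ITGA6 difference turned to -1.51 without length correction, to -0.78 with the union of exons as length and to -0.00433 without replicate 3 (left out in turn, -0.00433 to 1.05). The other ranges were 2.42 to 2.58 for LAMB3 minus LAMA3, 0.26 to 1.10 for COL17A1 minus ITGB4 and -3.87 to -1.94 for DST minus PLEC, which became -1.21 with the epithelial transcript of DST. With a replicate left out in turn, the number of pairs in 1 order ran from 15 to 24 (24 without replicate 1) and the share of TPM from 0.245% to 0.295%. Under the other settings the pairs ran from 13 (no length correction, epithelial transcripts) to 20 (centred by GC content). The share was 0.189% of TPM over all genes, 0.331% with the union of exons and 0.672% as a share of counts. No pairing of samples between groups was possible because there was 1 group, and the tests compared genes paired within a replicate. Depth was not the limit for these genes, each with at least 914 counts in every replicate. With 4 replicates no sign-flip p below 0.125 could be reached, and with 3 none below 0.25.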
